A study of Mus musculus with 2 samples.

Results

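The genes described here encode the mitochondrial respiratory chain, and they were chosen by symbol alone. Symbols listed in both libraries that began with mt-, Nduf followed by a, b, c, s or v, Cox4 to Cox8, Atp5 or Uqcr were taken, with Sdha, Sdhb, Sdhc and Sdhd, and pseudogenes were left out. The rule gave 106 of 21905 genes, of which 13 lie on the mitochondrial genome and 93 in the nucleus. Of the 93 nuclear symbols, 8 are Ndufaf genes, whose proteins assemble complex I and are not part of the finished enzyme. Cycs, the gene of cytochrome c, does not match the rule and is given beside these genes.

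The cells came from the femurs and tibias of female 12-week-old mice given vehicle (Veh) or doxorubicin (Doxo), an anthracycline chemotherapy drug, at 10 mg/kg, and collected after 96 h. Bone pieces were digested with collagenase, and cells bearing CD45, CD71 or Ter119, and per the labels also CD31, were depleted to enrich the resident, mostly non-blood cells of bone. Endothelial-like cells, which carry CD31, were nevertheless found. Single-cell 3′ RNA sequencing gave 1 library of each condition, and the number of mice behind each library is not given in the sources used here. With 1 library per condition, no test between Veh and Doxo was possible, and the drug and any other difference between the libraries cannot be told apart.

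The respiratory chain sits in the inner mitochondrial membrane. Complexes I and II pass electrons from nutrients to coenzyme Q, complex III passes them on to cytochrome c, complex IV hands them to oxygen, and complex V makes ATP from the proton gradient that I, III and IV build. Complex II is encoded wholly in the nucleus, whereas the other complexes combine a few subunits made inside the mitochondrion from its own DNA with many subunits imported from the cytosol. The mitochondrial genes are transcribed as long precursors from both strands and are then cut into single RNAs, while each nuclear gene has its own promoter.

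Each library held 2488 cells, with 24859695 unique molecular identifiers (UMIs, each the tag of 1 captured RNA molecule) in Veh and 20792012 in Doxo. The median cell held 8693 UMIs in Veh and 7347.5 in Doxo. The libraries shared 4 cell barcodes. No cell exceeded 9.93% mitochondrial UMIs in either library, because the authors had removed cells above 10%, so the highest mitochondrial shares are missing from both. Clustering gave 6 classes named from their markers and 1 left unnamed. They were CAR-like cells (Cxcl12-abundant reticular cells, 369 in Veh and 427 in Doxo), bone and cartilage fibroblast-like cells (1077 and 1340), arteriolar and endosteal fibroblast-like cells (442 and 267), osteoblast-like cells (206 and 125), chondrocyte-like cells (247 and 205), endothelial-like cells (103 and 69), and a cluster led by Clic5 and Rab37 (44 and 55). The names were rebuilt from markers, so differences from the study may come from the naming. The endothelial-like cells were set aside after a first clustering, and a second clustering defined the other classes. Of the 106 genes, only Cox4i2, Cox6b2 and Ndufa4l2 were among the 2000 variable genes of the second clustering, so no gene of the mitochondrial genome was used in it. The variable genes of the first clustering, and of the later clustering of CAR-like cells alone, were not recorded.

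The mitochondrial genome took a larger share of the UMIs in Doxo than in Veh in all 7 classes, whereas the nuclear genes of the same complexes did so mainly in CAR-like and osteoblast-like cells. Levels are given as UMIs summed over the cells of a class, either as a percent of all UMIs of that class or per 1000000 of them (CPM). Differences are log2 ratios of Doxo to Veh, with 95% intervals that cover counting error alone and not the variation between animals. All classes come from the same 2 libraries, so a direction they share is not repeated evidence. In shares of UMIs, more of one kind of RNA per cell and less of the rest cannot be told apart.

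In CAR-like cells, the 13 mitochondrial-genome genes held 2.93% of UMIs in Veh and 4.12% in Doxo, with a log2 ratio of 0.49 (0.48 to 0.51). Within the 3 populations of CAR-like cells described below, whose proportions differed between the libraries, the ratios were 0.33, 0.50 and 0.32. Osteoblast-like cells went from 3.25% to 4.66%, at 0.52 (0.49 to 0.55). Bone and cartilage fibroblast-like cells went from 2.30% to 3.06%, at 0.41 (0.40 to 0.42). The libraries were closer to each other in the remaining classes. Arteriolar and endosteal fibroblast-like cells had 2.64% and 3.28% (0.31), endothelial-like cells 2.83% and 3.31% (0.23), the Clic5 and Rab37 cluster 3.11% and 3.51% (0.17), and chondrocyte-like cells 3.14% and 3.49% (0.15). In the endothelial-like cells the value was 0.056 when cells with under 1000 genes or over 5% mitochondrial UMIs were dropped. Under that filter the osteoblast-like class held 70 cells in Veh and 31 in Doxo, beside 206 and 125 without it, and the value was 0.65. In the Clic5 and Rab37 cluster the value was 0.028 when each cell was thinned to 2000 UMIs.

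The median cell also had the larger mitochondrial share in Doxo in each class, with wide spreads that overlapped between the libraries. In CAR-like cells the median mitochondrial share was 2.82% in Veh and 4.11% in Doxo, and the quartiles ran from 2.14% to 3.73% and from 3.27% to 5.40%. In osteoblast-like cells the medians were 2.20% and 4.42%, with quartiles from 1.15% to 4.43% and from 2.08% to 6.31%. In chondrocyte-like cells, the medians of 3.14% and 3.49% lay close together. Median UMIs per cell were higher in Doxo only in CAR-like cells, at 6226 in Veh and 7310 in Doxo. They were lower in Doxo in each other class. Bone and cartilage fibroblast-like cells had 9722 and 7332.5, arteriolar and endosteal fibroblast-like cells 9137.5 and 6820, and osteoblast-like cells 3077.5 and 2930. Chondrocyte-like cells had 19476 and 14753, the Clic5 and Rab37 cluster 14828 and 9837, and endothelial-like cells 6326 and 4629.

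The nuclear respiratory chain genes together held 1.41% of UMIs in Veh and 1.70% in Doxo in CAR-like cells, with a log2 ratio of 0.26 (0.24 to 0.28). In osteoblast-like cells they held 0.963% and 1.12%, at 0.21 (0.16 to 0.26), and at 0.33 when each cell weighed the same. These were the classes in which both genomes stood higher in Doxo by more than counting error and by the widest margins. The unnamed Clic5 and Rab37 cluster followed at 1.64% and 1.72%, with a ratio of 0.069 (0.029 to 0.11). Bone and cartilage fibroblast-like cells lay slightly lower in Doxo, at 1.34% and 1.30% with a ratio of -0.044 (-0.054 to -0.033), and centring on the median of all genes turned this to 0.035. Chondrocyte-like cells had 1.09% and 1.06% (-0.039, -0.059 to -0.019), and 0.015 without the 5% of cells with most UMIs. Arteriolar and endosteal fibroblast-like cells (-0.0057) and endothelial-like cells (0.022) had intervals that included 0. Mitochondrial UMIs per nuclear respiratory chain UMI were higher in Doxo in each class, from 2.07 to 2.43 in CAR-like, from 1.72 to 2.36 in bone and cartilage fibroblast-like, and from 3.37 to 4.17 in osteoblast-like cells.

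**Figure D1:**
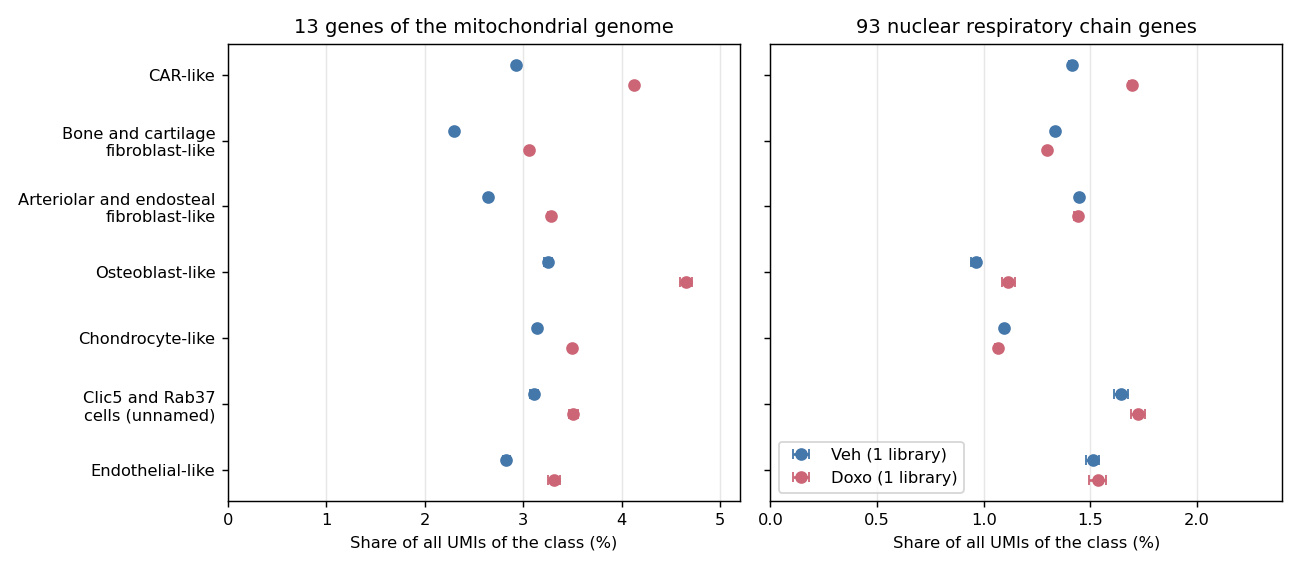
Share of all UMIs (percent, axis from 0) taken by the 13 mitochondrial-genome genes and by the 93 nuclear respiratory chain genes in each class of cells, in the Veh and the Doxo library, with exact 95% Poisson intervals. The mitochondrial share is higher in Doxo in each class, from 2.93% to 4.12% in CAR-like cells, whereas the nuclear share is higher mainly in CAR-like cells (1.41% to 1.70%) and osteoblast-like cells (0.963% to 1.12%).

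RNA of other cell types also differed between the libraries. The summed level of 8 erythroid markers in CAR-like cells was 552 CPM in Veh and 11.4 CPM in Doxo, with none of the 8 at 0 in both. Across the classes that sum lay between 129 and 703 CPM in Veh and between 5.48 and 62.9 CPM in Doxo, and the only class with any of the 8 markers higher in Doxo was the endothelial-like one, with 1. The sum of 8 immune markers was 1203 CPM in Veh and 95.0 CPM in Doxo in CAR-like cells, and 1034 and 92.7 CPM in bone and cartilage fibroblast-like cells. Elsewhere it lay nearer to equal, at 90.7 and 80.3 CPM in arteriolar and endosteal fibroblast-like, 134 and 121 CPM in osteoblast-like, 34.8 and 34.8 CPM in chondrocyte-like and 37.1 and 43.2 CPM in Clic5 and Rab37 cells, and was higher in Doxo in endothelial-like cells (104 and 171 CPM). Markers of pericytes or smooth muscle stood higher in Doxo in CAR-like cells, with a sum of 149 CPM in Veh and 332 CPM in Doxo and 4 of 6 genes higher. In CAR-like cells, the 8 skeletal muscle markers summed to 25.9 CPM in Veh and 2.09 CPM in Doxo, with Myh1 at 0 in both. That tissue is also rich in respiratory chain RNA. The 6 brown or beige fat markers summed to 7.96 CPM in Veh and 3.29 CPM in Doxo in CAR-like cells, with Ucp1 and Cidea at 0 in both. The part of erythroid, immune and pericyte or smooth muscle RNA in the results was not tested.

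The mitochondrial genes did not move as a block. mt-Nd3, mt-Nd2, mt-Co3 and mt-Nd6 mark the range of what was seen, so the last 60 bases of each transcript are shown, from the GENCODE M21 transcripts on GRCm38. mt-Nd3 (chrM:9747-9806) and mt-Co3 (chrM:9331-9390) stood higher in Doxo in every class, mt-Nd2 (chrM:4892-4951) had nearly equal CPM in most classes, and mt-Nd6 (chrM:13552-13611, the only one of the 13 on the minus strand) was lower in CAR-like cells. Capitals mark the stop codon, or for mt-Co3 the single base of it that the genome encodes, the rest being supplied by the tail of adenines added to the RNA.
mt-Nd3: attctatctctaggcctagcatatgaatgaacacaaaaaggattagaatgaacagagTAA
mt-Nd2: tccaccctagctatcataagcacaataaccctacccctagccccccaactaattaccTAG
mt-Co3: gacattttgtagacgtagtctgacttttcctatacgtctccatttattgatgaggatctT
mt-Nd6: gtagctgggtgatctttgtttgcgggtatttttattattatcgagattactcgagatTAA

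A gene was called higher in Doxo when its log2 ratio was above 0.32 and lower when it was below -0.32, among genes with 50 or more UMIs over both libraries in that class. The call is a size and not a test, and it is read beside the share of all genes that received it. In CAR-like cells, 10 of the 13 mitochondrial genes were called higher and 1 lower, beside 25.2% of all genes higher and 17.8% lower. In osteoblast-like cells the counts were 12 and 0, beside 21.4% and 29.3%. In bone and cartilage fibroblast-like cells they were 6 and 0, beside 9.21% and 18.9%. The remaining classes held fewer such genes. Arteriolar and endosteal fibroblast-like cells had 4 higher and 1 lower (15.3% and 18.5% of all genes), endothelial-like cells 6 and 1 (22.2% and 20.5%), the Clic5 and Rab37 cluster 4 and 2 (21.3% and 18.4%), and chondrocyte-like cells 3 and 0 (24.9% and 19.7%).

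Complex I takes 7 of its subunits from the mitochondrial genome, and they held both ends of the range. mt-Nd3, a small membrane subunit near the site of coenzyme Q binding, went from 488 CPM in Veh to 1185 CPM in Doxo in CAR-like cells, a log2 ratio of 1.28 (1.19 to 1.37). It was the mitochondrial gene with the highest ratio in each of the 7 classes. In osteoblast-like cells it went from 465 to 1307 CPM (1.49), in bone and cartilage fibroblast-like cells from 329 to 795 CPM (1.27), and in endothelial-like cells from 409 to 897 CPM (1.13). In arteriolar and endosteal fibroblast-like cells it went from 467 to 935 CPM (1.00), in chondrocyte-like cells from 379 to 670 CPM (0.82), and in the Clic5 and Rab37 cluster from 499 to 851 CPM (0.77). mt-Nd3 was thus called higher in all 7 classes.

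mt-Nd2, a proton-pumping membrane subunit of the same complex, was nearly level. It had 1805 CPM in Veh and 1829 CPM in Doxo in CAR-like cells, a ratio of 0.019 (-0.036 to 0.075). Its ratios in the other classes ran from -0.40 in the Clic5 and Rab37 cluster (2258 and 1711 CPM, called lower) to 0.033 in osteoblast-like cells. mt-Nd1, another subunit by the coenzyme Q site, had 1426 and 2189 CPM in CAR-like cells (0.62, 0.56 to 0.68) and was called higher in 5 classes. The proton-pumping subunits mt-Nd4 and mt-Nd5 had ratios of 0.36 and 0.49 in CAR-like cells, and each was called higher in 2 classes, CAR-like and osteoblast-like. mt-Nd4l, which overlaps mt-Nd4 on the same strand so that reads may be split between them, stood at 0.59 in CAR-like cells. Each of these values is a difference between libraries, and levels of different genes are not compared, because 3′ capture differs between RNAs.

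mt-Nd6 is the only protein encoded on the other strand, and it had few UMIs. It had 65.2 CPM in Veh and 41.2 CPM in Doxo in CAR-like cells (164 and 138 UMIs), a ratio of -0.66 (-1.0 to -0.33). Arteriolar and endosteal fibroblast-like (-0.38), endothelial-like (-0.42) and Clic5 and Rab37 cells (-0.36) were also called lower, each with an interval that included 0. Osteoblast-like cells had 25 and 27 UMIs and a ratio of 0.82 (-0.019 to 1.67), called higher. Its 3′ end overlaps that of mt-Nd5 on the opposite strand, and whether counting used the strand is not given in the sources used here.

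The mitochondrial genes of complexes III, IV and V were mostly higher in Doxo. mt-Cytb, the catalytic core of complex III, had 3709 CPM in Veh and 5321 CPM in Doxo in CAR-like cells (0.52, 0.48 to 0.56) and was called higher in 4 classes. mt-Co1, which holds the site where oxygen is reduced, had 4113 and 5537 CPM (0.43), and mt-Co2, which takes electrons from cytochrome c, had 3689 and 4956 CPM (0.43). mt-Co3, the third core subunit of complex IV, had 5157 and 7430 CPM (0.53, 0.50 to 0.56). mt-Co3 was called higher in all 7 classes, with ratios from 0.33 to 0.64, whereas mt-Co1 was so in 2 and mt-Co2 in 3. mt-Atp6, part of the proton channel of ATP synthase, had 5592 and 8466 CPM in CAR-like cells (0.60, 0.57 to 0.63) and was called higher in 6 classes, with 0.27 in endothelial-like cells. mt-Atp8, the other ATP synthase subunit, had 72.4 and 90.5 CPM (0.32, 0.052 to 0.60). The genes mt-Atp8, mt-Atp6 and mt-Co3 overlap end to start on the same strand, so how reads were divided among them is uncertain.

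**Figure D2:**
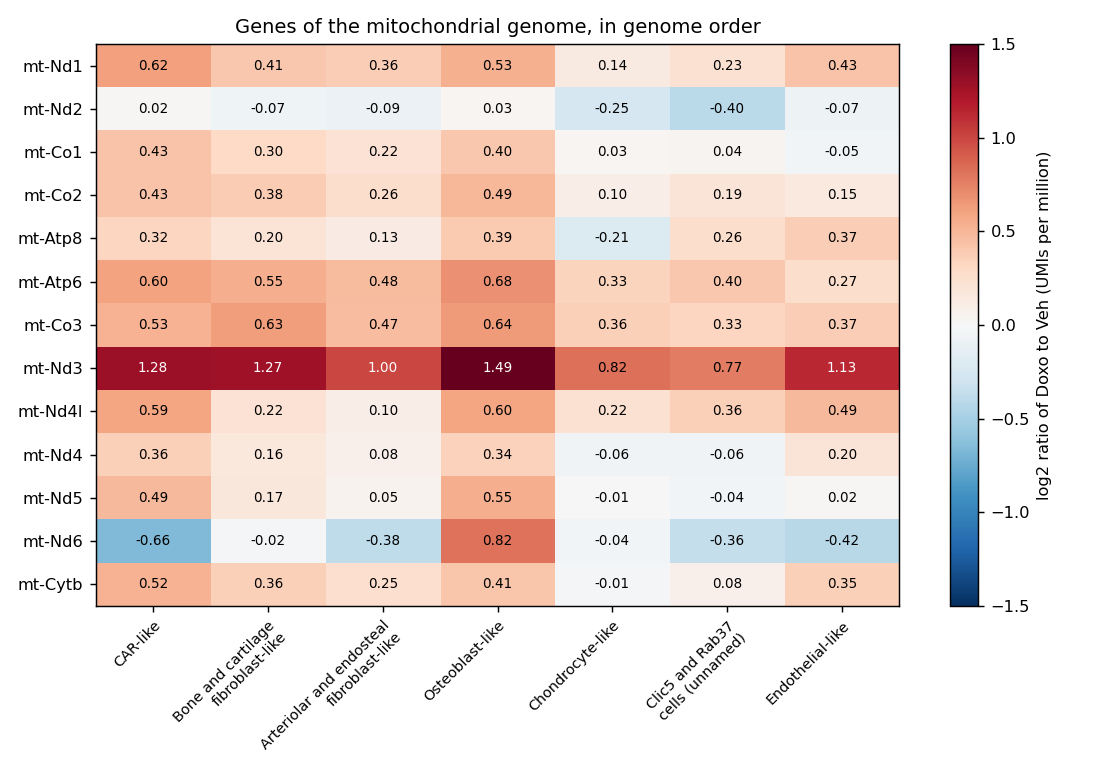
Heat map of the log2 ratio of CPM, Doxo to Veh, of each of the 13 mitochondrial-genome genes, in genome order, in each class of cells. Each ratio is printed in its cell, and counting error is not shown. mt-Nd3 stands above the other genes in each class (0.77 to 1.49), and mt-Nd2 stays between -0.40 and 0.033.

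Among the mitochondrial UMIs alone, which sets aside any change in their total, mt-Nd3 and mt-Nd2 parted in each class. mt-Nd3 made up 1.67% of mitochondrial UMIs in Veh and 2.87% in Doxo in CAR-like cells, 1.43% and 2.60% in bone and cartilage fibroblast-like cells, and 1.43% and 2.81% in osteoblast-like cells. Chondrocyte-like cells had 1.21% and 1.92%. mt-Nd2 went the other way in each of these classes. Its share was 6.16% in Veh and 4.44% in Doxo in CAR-like cells, 6.47% and 4.64% in bone and cartilage fibroblast-like cells, 5.33% and 3.80% in osteoblast-like cells, and 3.98% and 3.02% in chondrocyte-like cells. This share was chosen as a measure after the values were seen.

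Among the nuclear genes, those of CAR-like cells lay mostly above 0, but few were far above it. Enough UMIs were counted for 87 of the 93 genes, and 77 of them (88.5%) had a ratio above 0, beside 55.3% of all genes. Of these, 24 genes (27.6%) were called higher and 2 (2.30%) lower. The share of higher genes was near the 25.2% of all genes, whereas the share of lower genes stood beside 17.8% of all genes. The median ratio of the 87 genes was 0.23, beside 0.054 for all genes, and centring on the latter left 15 genes called higher and 2 lower. The share of all genes called after centring was not counted.

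By complex, the medians in CAR-like cells lay between 0.14 and 0.31, beside 0.054 for all genes, while the shares called higher lay on both sides of the 25.2% of all genes. Complex III had 4 of 8 genes called higher with a median of 0.31, complex II 1 of 4 with 0.27, complex V 6 of 17 (35.3%) with 0.26, and complex I 10 of 36 (27.8%) with 0.25. Complex IV had 2 of 15 (13.3%) higher and 1 (6.67%) lower, with a median of 0.14. In complex V, all 17 genes had ratios above 0. Of the Ndufaf assembly genes, 1 of 7 (14.3%) was called higher and 1 lower, and their median was 0.0083.

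The nuclear gene with most UMIs in each complex, fixed as a reference point, gave ratios between 0.13 and 0.48 in CAR-like cells. Ndufa13, an accessory subunit of complex I, had 257 CPM in Veh and 310 CPM in Doxo (0.27, 0.13 to 0.41). Sdha, the subunit of complex II that oxidises succinate, had 68.8 and 85.7 CPM (0.32, 0.040 to 0.60). Uqcrh, the hinge protein of complex III, had 284 and 311 CPM, and its interval included 0 (0.13, -0.010 to 0.27). The other pair was estimated more firmly. Cox4i1, the usual regulatory subunit IV of complex IV, had 485 and 584 CPM (0.27, 0.16 to 0.37). Atp5e, the epsilon subunit of ATP synthase, had 405 and 566 CPM (0.48, 0.37 to 0.59). Cox4i1 and Atp5e were above 0 in all 7 classes, from 0.0048 to 0.29 and from 0.064 to 0.48. Cox4i1 (chr8:120668222-120674207, plus strand) overlaps Gm20388 on the same strand, so its reads may be shared.

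Atp5k and Ndufa3 had the highest ratios of the nuclear genes in CAR-like cells. Atp5k (chr5:108433244-108434448, minus strand), the e subunit that helps ATP synthase to form dimers, had 152 CPM in Veh and 290 CPM in Doxo, a ratio of 0.93 (0.76 to 1.11). It was called higher in all 7 classes, with ratios from 0.47 to 0.93 and each interval above 0. Its level went from 104 to 145 CPM in bone and cartilage fibroblast-like cells, from 139 to 194 CPM in arteriolar and endosteal fibroblast-like cells, and from 183 to 265 CPM in osteoblast-like cells. It went from 76.5 to 115 CPM in chondrocyte-like cells, in the Clic5 and Rab37 cluster from 141 to 235 CPM, and in endothelial-like cells from 114 to 186 CPM. No other nuclear respiratory chain gene was called in all 7 classes. Ndufa3 (chr7:3617373-3620327, plus strand), an accessory subunit of complex I, came next, with 123 and 208 CPM in CAR-like cells (0.76, 0.56 to 0.96). It was called higher in 6 classes, of which 3 (CAR-like, bone and cartilage fibroblast-like and chondrocyte-like cells) had intervals above 0, and in arteriolar and endosteal fibroblast-like cells it stood at 0.27 (-0.012 to 0.54).

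The promoters of these 2 genes are shown because their ratios led the nuclear set, as the 250 bases before the start of each gene in RefSeq on GRCm38.p6. For Atp5k this is chr5:108434400-108434649 on the minus strand, and for Ndufa3 chr7:3617123-3617372 on the plus strand. Capitals mark a match to the palindromic motif of NRF1, a factor known for binding promoters of respiratory chain genes, and the Ndufa3 window holds no match to any of the motifs searched.
Atp5k: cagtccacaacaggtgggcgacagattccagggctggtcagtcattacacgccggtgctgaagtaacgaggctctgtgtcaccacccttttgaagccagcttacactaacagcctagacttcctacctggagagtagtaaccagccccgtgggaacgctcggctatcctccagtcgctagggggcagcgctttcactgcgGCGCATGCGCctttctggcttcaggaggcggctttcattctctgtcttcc
Ndufa3: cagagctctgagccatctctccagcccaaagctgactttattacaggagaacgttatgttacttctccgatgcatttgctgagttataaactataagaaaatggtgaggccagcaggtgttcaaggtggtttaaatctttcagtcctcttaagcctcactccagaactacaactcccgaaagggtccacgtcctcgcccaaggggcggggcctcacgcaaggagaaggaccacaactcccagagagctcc

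RefSeq windows of 250 bases before and 50 after the start were found for 76 of the 93 nuclear genes, in 81 windows, and were searched on both strands. The full NRF1 palindrome was found in 7 windows (8.64%), beside 0.971% of all 32851 windows. Its shorter core GCATGCGC, which the palindrome contains, was found in 12 (14.8%, beside 2.71%). The ETS motif CCGGAAG, bound by the respiratory chain regulator GABPA, was found in 19 (23.5%, beside 8.86%), and the hypoxia motif ACGTGC in 4 (4.94%, beside 5.91%). A match describes the sequence and says nothing about binding in these cells.

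The other nuclear genes with high ratios in CAR-like cells came from several complexes. Atp5g1, a gene of the rotating c ring of ATP synthase, had 162 CPM in Veh and 232 CPM in Doxo (0.52, 0.34 to 0.69). Ndufaf2, an assembly factor of complex I, had 35.4 and 50.8 CPM (0.52, 0.14 to 0.91). Uqcr11, a small subunit of complex III, had 202 and 284 CPM (0.49, 0.34 to 0.65). At the other end, only Ndufaf6 and Cox4i2 were called lower. Ndufaf6, an assembly factor of complex I, had 11.9 and 7.77 CPM (-0.62, -1.44 to 0.19). Cox4i2, the form of subunit IV known from lung and from low oxygen, had 30.6 and 22.1 CPM (-0.47, -0.95 to 0.0085). Both intervals included 0, as did those of the next 3. Ndufaf4, an assembly factor, stood at -0.24 (37.4 and 31.7 CPM), Ndufa4l2 at -0.19 (50.5 and 44.2 CPM), and Ndufb10, a subunit of complex I, at -0.16 (175 and 157 CPM).

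The value in CAR-like cells depended on which cells were counted. Clustered alone, CAR-like cells split into 3 populations. Set against the other CAR-like cells, each held markers of another class, with 3 of 8 osteoblast markers higher in the first population, 4 of 8 erythroid markers in the second, and 7 of 8 bone and cartilage fibroblast markers and 6 chondrocyte markers in the third. In the first, led by Fabp4 and Slc36a2 (185 cells in Veh and 333 in Doxo), the nuclear respiratory chain ratio was 0.29 (0.26 to 0.31), with 27 of 85 genes called higher and 1 lower, beside 18.4% and 24.4% of all genes. In the second, led by Ccl7, Ccl2 and Nr4a3 (173 and 80 cells), it was 0.082 (0.046 to 0.12), with 14 of 80 higher and 3 lower, beside 22.6% and 24.5%. In the third, led by Msmp and Npy (11 and 14 cells), it was 0.035 (-0.037 to 0.11). The mitochondrial-genome ratio was 0.33, 0.50 and 0.32 in the same order. The mitochondrial share of UMIs was 3.44% in Veh and 4.33% in Doxo in the first population. It was 2.57% and 3.63% in the second, and 2.76% and 3.45% in the third. The second population thus had the higher mitochondrial and the lower nuclear ratio of the 2 large ones, and its share of CAR-like cells was smaller in Doxo. The part of this difference in mix in the values of the whole class was not tested. When CAR-like cells were instead taken as cells with UMIs of CAR markers (788 in Veh and 768 in Doxo, of which 366 and 424 were in the cluster), the nuclear ratio was 0.15, with 12 genes called higher and 1 lower, and the mitochondrial ratio was 0.46. The share of all genes called was not counted for that set of cells.

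**Figure D3:**
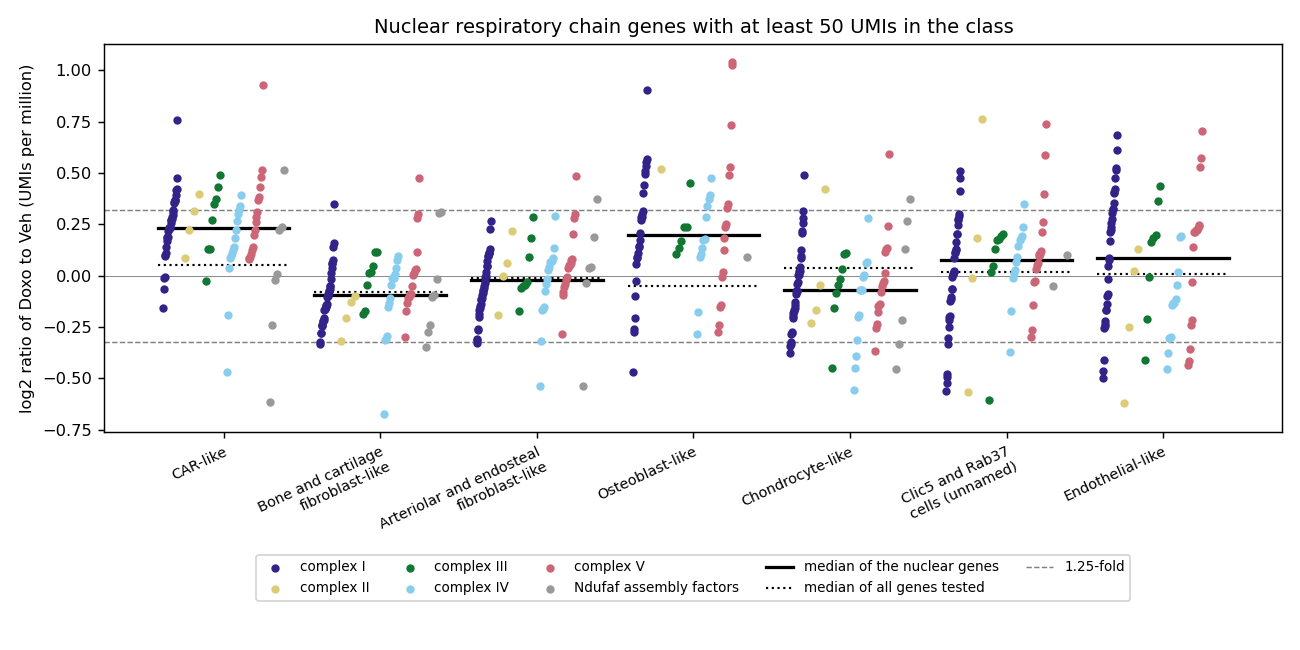
Log2 ratio of CPM, Doxo to Veh, of each nuclear respiratory chain gene with at least 50 UMIs in a class, by class of cells, with lines at 0 and at the threshold for a call. The points lie mostly above 0 in CAR-like cells (77 of 87) and osteoblast-like cells (51 of 64), and around or below 0 in bone and cartilage fibroblast-like cells (27 of 88 above 0).

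In osteoblast-like cells, as in CAR-like cells, most nuclear genes had ratios above 0, at lower depth. Of 64 genes with enough UMIs, 21 (32.8%) were called higher and 1 (1.56%) lower, beside 21.4% and 29.3% of all genes. The median was 0.20, beside -0.050 for all genes, and 51 genes (79.7%) were above 0, beside 46.7%. The 2 highest were both genes of ATP synthase. Atp5g3, another gene of the c ring, had 47.7 CPM in Veh and 98.6 CPM in Doxo (1.04, 0.40 to 1.70). Atp5md, a small membrane subunit, had 76.6 and 156 CPM (1.02, 0.52 to 1.54). The lowest were Ndufv2, an iron-sulfur subunit of complex I, with 57.8 and 41.1 CPM (-0.47, -1.33 to 0.29), and Cox6b1, a subunit facing cytochrome c, with 181 and 148 CPM (-0.29, -0.72 to 0.13).

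Both fibroblast-like classes had few nuclear genes called in either direction. In bone and cartilage fibroblast-like cells, 2 of 88 were called higher (2.27%) and 4 lower (4.55%), beside 9.21% and 18.9% of all genes, and the median was -0.093 beside -0.079. Centred on the median of all genes, the counts were 6 higher and 1 lower, without a count of all genes called after centring. Besides Atp5k (0.47), Ndufa3 was highest with 42.2 and 53.8 CPM (0.35). The lowest were Cox6b2, a form of Cox6b1 known from testis, with 3.90 and 2.43 CPM (-0.68, -1.45 to 0.049), and Ndufaf7, an assembly enzyme, with 14.6 and 11.5 CPM (-0.35). Arteriolar and endosteal fibroblast-like cells had 2 of 86 higher (2.33%) and 3 lower (3.49%), beside 15.3% and 18.5%. There Atp5k (0.48) and Ndufaf2 (33.5 and 43.4 CPM, 0.37) were highest. Cox4i2 (17.0 and 11.5 CPM, -0.54) and Ndufaf4 (25.02 and 17.1 CPM, -0.54) were lowest, each with at most 109 UMIs in a library.

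In chondrocyte-like cells, 4 of 85 nuclear genes (4.71%) were called higher and 11 (12.9%) lower, beside 24.9% and 19.7% of all genes. Cox5a, a subunit of complex IV, was lowest with 116 CPM in Veh and 79.0 CPM in Doxo (-0.56, -0.78 to -0.34), and Ndufaf4 followed at -0.45. Atp5k (0.59) and Ndufa3 (59.9 and 84.2 CPM, 0.49) were highest. The Clic5 and Rab37 cluster was balanced, with 8 of 80 (10.0%) in each direction, beside 21.3% and 18.4%. Its extremes rested on few UMIs. Sdha had 29 and 50 UMIs (0.76, 0.085 to 1.49), Uqcrfs1, the iron-sulfur subunit of complex III, 59 and 39 (-0.60, -1.23 to -0.0025), and Sdhb, the iron-sulfur subunit of complex II, 56 and 38 (-0.57, -1.21 to 0.047). In endothelial-like cells, 16 of 75 (21.3%) were higher and 10 (13.3%) lower, beside 22.2% and 20.5%. Ndufs6, a zinc-binding subunit of complex I, had 71.3 and 114 CPM (0.68, 0.043 to 1.31), whereas Sdhc, a membrane anchor of complex II (-0.62), and Ndufc1, a small subunit of complex I (-0.50), were lowest with intervals that included 0.

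A few nuclear genes besides Atp5k lay on the same side of 0 in all or nearly all classes. Atp5md was above 0 in all 7 classes (0.24 to 1.02) and called higher in 3. Atp5mpl, another small subunit of ATP synthase, was above 0 in 7 (0.053 to 0.59) and called higher in 4. Ndufa2, an accessory subunit of complex I, was above 0 in 7 (0.11 to 0.42). In the other direction, Ndufv2 was called lower in 3 classes and was above 0 in 1 (0.0095), and Ndufaf4 was below 0 in each of the 4 classes where it had enough UMIs. These genes were named after their values were seen, except those already given. Cycs ran from -0.34 in chondrocyte-like cells (98.3 and 77.4 CPM) to 0.42 in the Clic5 and Rab37 cluster (87.2 and 117 CPM), and stood at 0.081 in CAR-like cells.

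Some subunits of complex IV exist in a usual form and in forms known from other tissues or from low oxygen, and their shares are given here by class of cells and library. Ndufa4l2 (chr10:127514967-127517154, plus strand) is induced by low oxygen and is a paralog of Ndufa4 (chr6:11900292-11907497, minus strand), a subunit now placed in complex IV. Ndufa4l2 made up 86.4% of the UMIs of the pair in Veh and 85.9% in Doxo in bone and cartilage fibroblast-like cells. It made up 49.7% and 49.4% in arteriolar and endosteal fibroblast-like cells, and 42.4% and 42.8% in the Clic5 and Rab37 cluster. The share was lower elsewhere. It was 22.0% and 26.4% in chondrocyte-like cells, 21.1% and 17.5% in osteoblast-like cells, and 10.9% and 7.87% in CAR-like cells. Endothelial-like cells had the lowest share, with 2.46% (1.07% to 4.79%) and 5.26% (2.30% to 10.1%) from 8 UMIs in each library. Ndufa4l2 was one of the genes that helped to define the classes, so its differences between classes are a description.

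Cox4i2 (chr2:152754173-152765037, plus strand) had another distribution, led by chondrocyte-like cells. There it made up 31.0% (29.4% to 32.5%) of the UMIs of Cox4i1 and Cox4i2 in Veh and 25.4% (23.6% to 27.3%) in Doxo. Its level in these cells was 227 CPM in Veh and 174 CPM in Doxo, a ratio of -0.39 (-0.54 to -0.24). Bone and cartilage fibroblast-like cells followed with 19.3% and 18.4%. In CAR-like cells the share was 5.94% (4.71% to 7.36%) in Veh and 3.65% (2.87% to 4.56%) in Doxo, and in the remaining classes it was at most 2.49%. Of the 4 classes with enough UMIs, Cox4i2 was called lower in 3, while Cox4i1 was above 0 in all.

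Cox6b2 (chr7:4751792-4753094, minus strand) was seen mainly in CAR-like cells, with 7.91% of the UMIs of Cox6b1 and Cox6b2 in Veh and 6.84% in Doxo, and in arteriolar and endosteal fibroblast-like cells, with 6.14% and 7.18%. In each other class it was at most 3.80%. The forms known from heart and skeletal muscle were nearly absent, as was Cox7b2. Cox6a2 had at most 3 UMIs in any class and library, Cox7a1 at most 9 and Cox8b at most 9, and Cox7b2 had at most 1. With Cox8c, these were the 5 nuclear genes that reached 50 UMIs in no class, whereas 63 of the 93 reached it in every class.

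**Figure D4:**
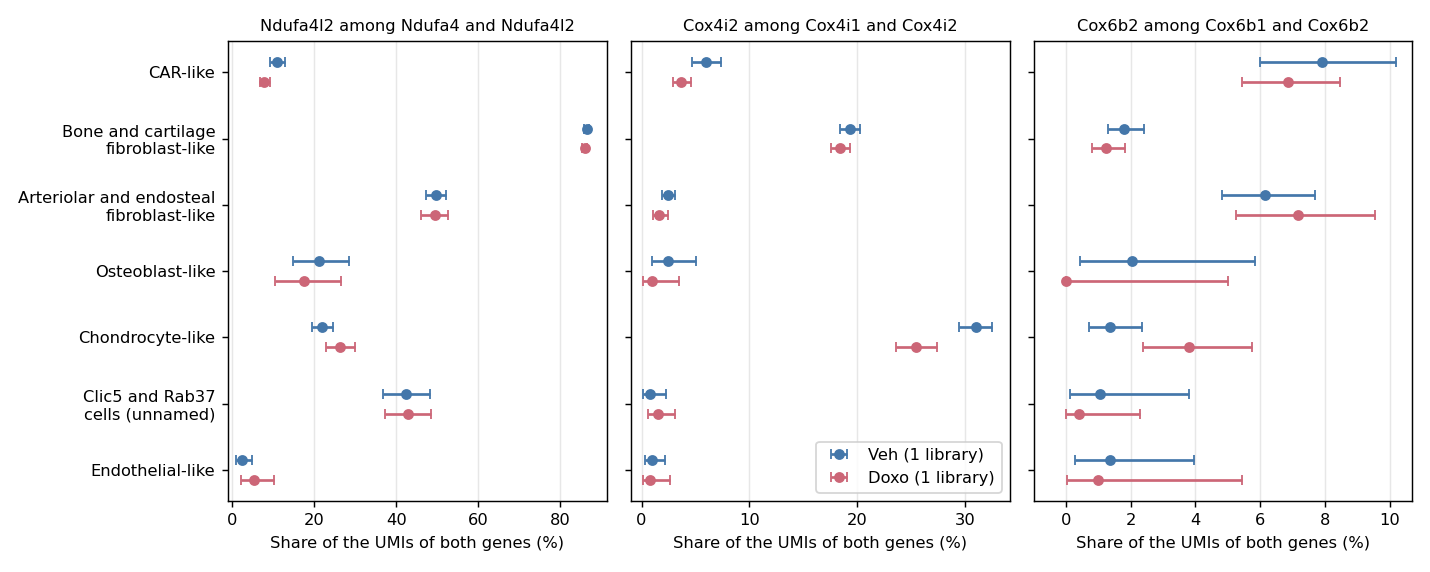
Share (percent, axis from 0) of Ndufa4l2, Cox4i2 and Cox6b2 among the UMIs of each gene and its usual counterpart, by class of cells and library, with exact 95% binomial intervals. In the Veh library, Ndufa4l2 is lowest in endothelial-like cells (2.46%) and highest in bone and cartilage fibroblast-like cells (86.4%), and Cox4i2 is highest in chondrocyte-like cells, at 31.0% in Veh and 25.4% in Doxo.

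Other mitochondrial genes were read beside the respiratory chain by the same rule, in CAR-like cells first. The mitochondrial ribosome, which translates the mitochondrial-genome RNAs, had 32 of 76 genes (42.1%) called higher and 1 (1.32%) lower, with a median of 0.26, beside 25.2% and 17.8% of all genes. Mrps35 had the highest ratio (15.5 and 30.2 CPM, 0.95, 0.41 to 1.53) and Mrpl24 the lowest (78.4 and 60.3 CPM, -0.38, -0.67 to -0.087). Within the 2 large CAR-like populations the medians of the ribosome genes were lower. The first had a median of 0.13, with 23 of 75 (30.7%) higher and 5 (6.67%) lower, beside 18.4% and 24.4% of all genes. The second had 0.11, with 14 of 51 (27.5%) and 2 (3.92%), beside 22.6% and 24.5%. Over all CAR-like cells, the shares called higher in the next 3 lists did not exceed the 25.2% of all genes. The tricarboxylic acid cycle had 3 of 18 genes (16.7%) higher and 0 lower, with a median of 0.14, from Fh1, which hydrates fumarate (40.6 and 36.1 CPM, -0.17), to Ogdh, which oxidises 2-oxoglutarate (49.3 and 65.1 CPM, 0.40). Assembly factors other than the Ndufaf genes had 9 of 37 (24.3%) higher and 2 (5.41%) lower, with a median of 0.095, from Cox10 (14.3 and 8.36 CPM, -0.77) to Cmc2 (9.15 and 17.9 CPM, 0.95). The list of electron carriers held Cycs and the Coq and Pdss genes, with Etfa, Etfb, Etfdh, Dhodh, Gpd2 and Sqor. It had 2 of 16 (12.5%) in each direction, from Coq10b (120 and 62.7 CPM, -0.94, -1.20 to -0.68) to Coq6 (6.37 and 11.05 CPM, 0.77).

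Glycolysis and the regulators of mitochondrial biogenesis had medians below 0 in CAR-like cells. Of 16 glycolysis genes, 6 (37.5%) were called lower and 1 (6.25%) higher, beside 17.8% and 25.2% of all genes, with a median of -0.20. This was not seen in the first and largest CAR-like population, where the median was 0.14. There 3 of 13 glycolysis genes (23.1%) were called in each direction, beside 18.4% of all genes higher and 24.4% lower. In the second population, which held 173 cells in Veh and 80 in Doxo, the median was -0.16. There 4 of 14 (28.6%) were called lower, near the 24.5% of all genes, and 1 (7.14%) higher, beside 22.6%. Slc2a1, the glucose transporter, had 31.4 CPM in Veh and 14.3 CPM in Doxo (-1.13, -1.68 to -0.60), and Ldhb, which turns lactate to pyruvate, had 83.9 and 128 CPM (0.60, 0.36 to 0.85). Of 7 biogenesis regulators, 5 (71.4%) were called lower and 1 (14.3%) higher, with a median of -0.41, and they were not counted by population. Gabpb1, the partner of GABPA, had 20.3 and 11.3 CPM (-0.83, -1.48 to -0.20), and Esrra, a nuclear receptor that drives respiratory chain genes, had 14.3 and 22.4 CPM (0.64, 0.054 to 1.26). The machinery of mitochondrial DNA and RNA had 6 of 16 (37.5%) called higher and 1 (6.25%) lower, with a median of 0.14. Polg, the mitochondrial DNA polymerase, was its lowest with 39.4 and 26.0 CPM (-0.60, -1.03 to -0.17), and Mterf4, which acts on the mitochondrial ribosome, its highest with 7.16 and 12.5 CPM (0.79, -0.019 to 1.69).

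In the other 6 classes, the shares of mitochondrial ribosome genes called lower lay near those of all genes. The shares called higher lay below those of all genes in both fibroblast-like classes, chondrocyte-like cells and the Clic5 and Rab37 cluster. In bone and cartilage fibroblast-like cells, 1 of 78 (1.28%) was called higher and 13 (16.7%) lower, beside 9.21% and 18.9% of all genes. The median was -0.14, and 16.7% of these genes had a ratio above 0, beside 38.2% of all genes. Arteriolar and endosteal fibroblast-like cells had 7 of 76 (9.21%) higher and 11 (14.5%) lower, beside 15.3% and 18.5%, with a median of -0.064. In osteoblast-like cells the counts were 4 of 19 (21.1%) and 6 (31.6%), beside 21.4% and 29.3%, with a median of -0.11. The other classes had medians close to 0. Chondrocyte-like cells had 7 of 70 higher and 12 (17.1%) lower, beside 24.9% and 19.7%, with a median of 0.028. The Clic5 and Rab37 cluster had 4 of 39 and 8 (20.5%), beside 21.3% and 18.4%, with a median of 0.064. Endothelial-like cells had 5 of 22 (22.7%) and 6 (27.3%), beside 22.2% and 20.5%, with a median of -0.017. Differences between lists and between classes were not tested, since each condition has 1 library.

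**Figure D5:**
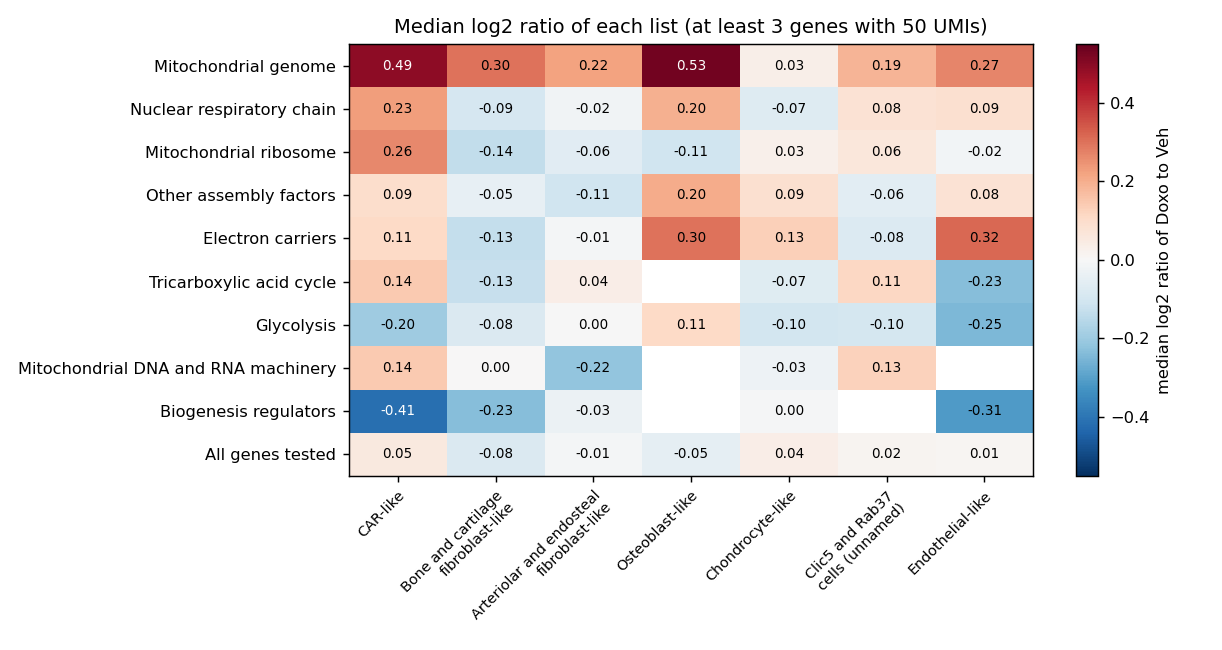
Median log2 ratio of CPM, Doxo to Veh, of the genes of each list with at least 50 UMIs, by class of cells, beside the median of all genes. In CAR-like cells the nuclear respiratory chain (0.23) and the mitochondrial ribosome (0.26) lie above all genes (0.054), and glycolysis (-0.20) and the biogenesis regulators (-0.41) lie below.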

How the data were processed

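The 2 single-cell libraries, 1 of Veh and 1 of Doxo, were prepared with a 10x Genomics 3′ v3 kit. The authors counted reads with Cell Ranger against GRCm38, and Partek is named in the submitters' processing notes. The authors deposited a log2 value for each gene in each cell, scaled so that a cell sums to 1000000. The values had the form of this scaling and log2 applied 2 times in a row. That form was read from the values and is not described in the methods. The scaling was inverted to whole UMIs, which held for 99.9% of nonzero values up to 50 UMIs (tolerance 0.05). For 21 symbols, none of them a respiratory chain gene, values were not whole. Aldoa, of the glycolysis list, was among them, with 1075 of 1851 values not whole in Veh and 1094 of 1854 in Doxo. Such values were rounded. The inversion was tested on 60 simulated cells and returned the simulated UMIs for 99.999% of nonzero values. Those cells were made with the same assumed scaling, so this checks the arithmetic and not the form of the deposited values. The limits of the study were applied again: between 200 and 10000 genes per cell, between 100 and 100000 UMIs, and no more than 10% of them mitochondrial. Doublets were not called.

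Seurat 5.3.0 under R 4.3.3 was used to join both libraries, with no integration step, and to cluster cells on 35 principal components at a resolution of 0.1. The endothelial-like cluster was set aside and the rest clustered again, and CAR-like cells were clustered alone at 0.2. A class name needed 3 or more of its markers, each detected in 10% or more of the cluster and 1 log2 unit above the remaining cells. The cluster led by Clic5 and Rab37 stayed unnamed, since its marker list holds its own leading genes.

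UMIs were summed per class and library with Python 3.11.15 and scipy 1.17.1. Ratios had 0.5 UMI added to each sum and exact conditional binomial 95% intervals. Shares of all UMIs of a class had exact Poisson intervals, and shares within a gene pair or within mitochondrial UMIs had exact binomial (Clopper-Pearson) ones. UMIs were summed over 2 libraries that stand for 1 sample each, so no test was run. Genes named are each mitochondrial-genome gene, the nuclear gene with most UMIs per complex, the 5 highest and 5 lowest nuclear ratios in CAR-like cells and 2 of each in other classes, the listed isoforms, Cycs, and the extremes of each other list. The genes, lists and rules were chosen with earlier results of these data known. Of the 106 symbols, 105 were found in GENCODE M21, Atp5md was the exception, and Atp5o has more than 1 gene ID. Promoter windows came from RefSeq and none was used for Ndufa4l2, Cox4i1 and Cox4i2. Alternatives covered the cell filter, clustering, depth, weighting, scaling, UMI minimum, fold and choice of CAR-like cells.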

Additional observations from a re-analysis of the deposited data

Results flagged for a closer look

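Ndufa1, an accessory subunit of complex I, went in opposite directions in different classes of cells. It had 113 CPM in Veh and 151 CPM in Doxo in CAR-like cells, a log2 ratio of 0.42 (0.21 to 0.64), and 202 and 300 CPM in osteoblast-like cells, a ratio of 0.57 (0.24 to 0.90). In chondrocyte-like cells it had 661 UMIs in Veh and 337 in Doxo (109 CPM in Doxo), a ratio of -0.32 (-0.52 to -0.13). In each of these classes the value was past the threshold for a call and its interval for counting error left out 0. The difference between the classes was not tested, since each class has 1 library of each condition. The other 4 classes had ratios between -0.15 and 0.088.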

How the results depend on the processing

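The mitochondrial-genome ratio stayed above 0 in each of the 7 classes under every alternative that was run, whereas nuclear ratios near 0 changed sign in bone and cartilage fibroblast-like, arteriolar and endosteal fibroblast-like and chondrocyte-like cells. Of the mitochondrial-genome ratios under the alternatives, 20 moved by less than counting error and 31 by more, and of the nuclear ratios 45 and 20. The counts of nuclear genes called were, as reported, 24 higher and 2 lower in CAR-like, 2 and 4 in bone and cartilage fibroblast-like, 2 and 3 in arteriolar and endosteal fibroblast-like, 21 and 1 in osteoblast-like, 4 and 11 in chondrocyte-like, 8 and 8 in Clic5 and Rab37, and 16 and 10 in endothelial-like cells. The values that moved by more than counting error, or counts by more than 1.5 times, follow by setting, and the cause of each was not tested. The share of all genes called was not counted under the alternatives. Dropping cells with under 1000 genes or over 5% mitochondrial UMIs, the mitochondrial-genome ratio was 0.42 in CAR-like, 0.36 in bone and cartilage fibroblast-like, 0.65 in osteoblast-like, 0.12 in chondrocyte-like, 0.22 in Clic5 and Rab37 and 0.056 in endothelial-like cells. The stricter filter gave, for higher calls, 1 in bone and cartilage fibroblast-like cells, and for lower calls, 1 in CAR-like cells. Without the 5% of cells with most UMIs, the mitochondrial-genome ratio was 0.52 in CAR-like, 0.39 in bone and cartilage fibroblast-like and 0.11 in Clic5 and Rab37 cells, and the nuclear ratio was 0.015 in chondrocyte-like and 0.13 in Clic5 and Rab37 cells. Leaving out these cells gave, for higher calls, 7 in chondrocyte-like and 17 in Clic5 and Rab37 cells, and for lower calls, 5 in arteriolar and endosteal fibroblast-like, 3 in osteoblast-like and 4 in Clic5 and Rab37 cells. With 20 principal components, the mitochondrial-genome ratio was 0.47 in CAR-like, 0.39 in bone and cartilage fibroblast-like, 0.60 in osteoblast-like and 0.16 in chondrocyte-like cells, and the nuclear ratio was -0.031 in arteriolar and endosteal fibroblast-like cells. Clustering on 20 components gave, for higher calls, 4 in arteriolar and endosteal fibroblast-like cells, and for lower calls, 2 in bone and cartilage fibroblast-like, 5 in arteriolar and endosteal fibroblast-like and 5 in osteoblast-like cells. Leaving the respiratory chain genes out of the variable genes gave, for higher calls, 5 in arteriolar and endosteal fibroblast-like cells. With each cell thinned to 2000 UMIs, the mitochondrial-genome ratio was 0.45 in CAR-like, 0.35 in bone and cartilage fibroblast-like, 0.26 in arteriolar and endosteal fibroblast-like, 0.56 in osteoblast-like, 0.20 in chondrocyte-like, 0.028 in Clic5 and Rab37 and 0.14 in endothelial-like cells, and the nuclear ratio was -0.013 in bone and cartilage fibroblast-like, 0.021 in arteriolar and endosteal fibroblast-like, -0.0082 in chondrocyte-like, 0.20 in Clic5 and Rab37 and 0.077 in endothelial-like cells. Thinning gave, for higher calls, 4 in bone and cartilage fibroblast-like, 5 in arteriolar and endosteal fibroblast-like and 10 in chondrocyte-like cells, and for lower calls, 7 in bone and cartilage fibroblast-like, 6 in arteriolar and endosteal fibroblast-like, 4 in osteoblast-like and 1 in Clic5 and Rab37 cells. With each cell weighing the same, the mitochondrial-genome ratio was 0.42 in CAR-like, 0.37 in bone and cartilage fibroblast-like, 0.27 in arteriolar and endosteal fibroblast-like, 0.60 in osteoblast-like, 0.19 in chondrocyte-like, 0.066 in Clic5 and Rab37 and 0.14 in endothelial-like cells, and the nuclear ratio was 0.29 in CAR-like, -0.021 in bone and cartilage fibroblast-like, 0.33 in osteoblast-like, -0.014 in chondrocyte-like, 0.11 in Clic5 and Rab37 and 0.079 in endothelial-like cells. Equal weights gave, for higher calls, 5 in bone and cartilage fibroblast-like and 14 in Clic5 and Rab37 cells, and for lower calls, 6 in arteriolar and endosteal fibroblast-like cells. Per UMI of nuclear genes, the mitochondrial-genome ratio was 0.51 in CAR-like and 0.42 in bone and cartilage fibroblast-like cells, and the nuclear ratio was -0.033 in bone and cartilage fibroblast-like cells. Scaling to nuclear UMIs gave, for lower calls, 2 in bone and cartilage fibroblast-like cells. Without the second CAR-like population, the mitochondrial-genome ratio was 0.34 in CAR-like cells. With CAR-like cells taken by marker UMIs, the mitochondrial-genome ratio was 0.46 in CAR-like cells, and the nuclear ratio was 0.15 in CAR-like cells. Taking CAR-like cells by marker UMIs gave, for higher calls, 12 in CAR-like cells, and for lower calls, 1 in CAR-like cells. Centred on the median of all genes, the nuclear ratio was 0.21 in CAR-like, 0.035 in bone and cartilage fibroblast-like, 0.26 in osteoblast-like and -0.077 in chondrocyte-like cells. Centring gave, for higher calls, 15 in CAR-like and 6 in bone and cartilage fibroblast-like cells, and for lower calls, 1 in bone and cartilage fibroblast-like cells. A minimum of 10 UMIs gave, for higher calls, 7 in chondrocyte-like cells, and for lower calls, 3 in osteoblast-like cells. A fold of 1.5 gave, for higher calls, 2 in CAR-like, 0 in bone and cartilage fibroblast-like, 0 in arteriolar and endosteal fibroblast-like, 4 in osteoblast-like, 1 in chondrocyte-like, 3 in Clic5 and Rab37 and 3 in endothelial-like cells, and for lower calls, 1 in CAR-like, 1 in bone and cartilage fibroblast-like, 0 in arteriolar and endosteal fibroblast-like, 0 in osteoblast-like, 0 in chondrocyte-like, 1 in Clic5 and Rab37 and 1 in endothelial-like cells.

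The median of all genes, used for centring, lay between -0.079 and 0.054 across the classes. Thinning left out cells with fewer than 2000 UMIs, at most 48 in Veh and 36 in Doxo in a class. The shares of single genes among mitochondrial UMIs and the values of single CAR-like populations were alternatives chosen after the data were seen. Each condition has 1 library, so none was left out, and no spread between animals is known. No paired analysis was possible because each condition has 1 library and the labels give no shared replicate numbers. Counting error limits the smaller classes most, where 64 of the 93 nuclear genes reached 50 UMIs in osteoblast-like cells. Cells above 10% mitochondrial UMIs had been removed before deposit, so the mitochondrial shares are cut off at the top in both libraries.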
